A study of Arabidopsis thaliana with 4 samples.

Results

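The evening complex genes of Arabidopsis thaliana and their paralogues were followed as 8 genes, chosen by their AGI identifiers among the 33602 gene IDs measured. They are LUX (AT3G46640) and its homologue BOA (AT5G59570), ELF3 (AT2G25930), ELF4 (AT2G40080), and the ELF4-like genes ELF4-L1 (AT2G29950), ELF4-L2 (AT1G72630), ELF4-L3 (AT2G06255) and ELF4-L4 (AT1G17455). All 8 were found in every library. RNA of whole seedlings was sequenced from the wild type Col-0 and from lux-6, which is labelled lux -/- in the Col-0 ecotype. There were 2 libraries of each genotype, described by the series as biological replicates. All seedlings were 10 days old, grew in long days at 22 °C on MS medium with 3% sucrose, and were collected at ZT12, that is 12 h after lights on. The labels do not say what lesion lux-6 carries, nor how many seedlings went into a library.

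The evening complex is a repressor of the plant circadian clock that assembles around dusk. LUX binds DNA through a single MYB-like domain of the GARP type, ELF3 is the scaffold, and ELF4 is a small protein that binds ELF3 and promotes its activity. BOA, also called NOX, shares the LUX type of DNA-binding domain, and the ELF4-like genes encode small proteins of the ELF4 family. The morning factors CCA1 and LHY repress evening genes through a promoter motif named the evening element. LUX is itself among the genes that the complex is known to bind.

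The promoters of LUX and BOA are shown because these homologues, which differed in opposite directions, both carry motifs of known regulators of the evening complex. Each is the 300 bases before the annotated gene start, 5′ to 3′, from the RefSeq TAIR10.1 genome. Capitals mark matches on either strand to the evening element AAAATATCT, the LUX site GATACG or GATTCG, and the G-box CACGTG bound by PIF and HY5 proteins.
LUX (chr3:17182742-17183041, plus strand): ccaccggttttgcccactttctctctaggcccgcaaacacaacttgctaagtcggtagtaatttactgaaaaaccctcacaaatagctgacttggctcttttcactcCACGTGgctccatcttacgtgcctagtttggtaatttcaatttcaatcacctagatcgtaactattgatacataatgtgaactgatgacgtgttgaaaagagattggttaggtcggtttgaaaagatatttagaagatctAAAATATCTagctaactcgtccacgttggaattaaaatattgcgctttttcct
BOA (chr5:24003588-24003887, plus strand): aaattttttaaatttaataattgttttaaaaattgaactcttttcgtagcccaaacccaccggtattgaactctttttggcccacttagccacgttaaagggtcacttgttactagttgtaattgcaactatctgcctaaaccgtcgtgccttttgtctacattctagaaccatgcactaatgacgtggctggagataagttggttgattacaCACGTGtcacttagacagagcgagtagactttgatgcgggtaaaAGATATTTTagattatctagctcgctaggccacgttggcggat

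The LUX and BOA windows each held 1 evening element, beginning 53 and 43 bases before the gene start, and 1 G-box, beginning 193 and 87 bases before it. The ELF3 window held 1 LUX site, beginning 83 bases before the start. No match to these motifs was found in the windows of the 4 ELF4-like genes. Of 27443 promoters of protein-coding genes with the same window, 2.79% held the evening element, 5.51% GATACG, 9.34% GATTCG and 7.09% the G-box. A match describes the letters in the window and not binding.

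The paralogues shared few long identical stretches. Coding sequences of LUX (975 bases) and BOA (897 bases) were 65.4% identical, counted over 1005 aligned columns with gaps included. The longest stretch that any pair of the 8 genes shared was 44 bases, in the coding sequences of LUX and BOA. ELF4-L2 and ELF4-L4 were the closest of the ELF4 family, at 81.1% identity and a longest shared stretch of 29 bases. The other family pairs were 51.5% to 64.4% identical, and ELF4 itself was between 51.9% and 55.4% identical to the 4 others. Both stretches are shown because fragments that lie wholly within them cannot be assigned to 1 gene.
LUX at chr3:17183674-17183717 and BOA at chr5:24004464-24004507, plus strands: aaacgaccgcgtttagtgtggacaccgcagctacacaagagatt
ELF4-L2 at chr1:27345117-27345145 and ELF4-L4 at chr1:5998049-5998077, plus strands: ttgatcaacgagatcaatcagaaccatga

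The deposited unit is FPKM, in which fragments are divided by the gene's length and the library's total. The lengths used are not given, so levels set side by side between genes depend on lengths that could not be checked. Library totals worked back from the values were between 10735709 and 11198704 fragments. A wild-type library, Col-0 replicate 2, was unlike the rest. Over 19592 genes, Pearson's r of log2(FPKM + 1) was 0.909 for the wild-type pair and 0.984 for the mutant pair, and Col-0 replicate 2 correlated with either lux-6 library at 0.863. Plastid-encoded genes made up 3.09% of its summed FPKM against 0.0525% to 0.0698% elsewhere. All 3 green tissue markers and all 3 root markers were above 0 in every library, and the green markers went different ways in Col-0 replicate 2. RBCS1A was at 20766 FPKM there and between 8630 and 10599 in the others, LHCB2.2 at 13.9 FPKM against 63.9 to 169, and PSAD-1 at 1509 FPKM against 1212 to 1382. The root markers also went different ways in that library. PYK10 was at 1422 FPKM against 2609 to 2970 in the others, and COBL9 at 1.16 FPKM against 1.47 to 2.07. SHR was highest there, at 14.5 FPKM against 9.55 to 13.5. The seed markers SESA3, CRU1 and OLEO1 were higher in the mutant pair than in the wild-type pair, with summed levels of 152 and 13.5 FPKM in the wild type and 940.4 and 987 in the mutant. The part of these library differences in the results for the evening complex genes was not tested.

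The levels of the 8 genes spanned a wide range at ZT12. ELF4 was the most abundant in all 4 libraries and stood above 95.3% of tested genes in each. In Col-0 it was followed by LUX, ELF3 and BOA, then by ELF4-L2 and ELF4-L4, and ELF4-L1 and ELF4-L3 were lowest. In lux-6 the order below ELF4 was ELF3, then BOA and LUX, then ELF4-L2, ELF4-L4, ELF4-L3 and ELF4-L1. The levels of LUX and BOA overlapped in lux-6, whereas in both Col-0 libraries LUX was above BOA. ELF4-L2 and ELF4-L4 overlapped in Col-0, and so did ELF4-L1 and ELF4-L3.

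**Figure D1:**
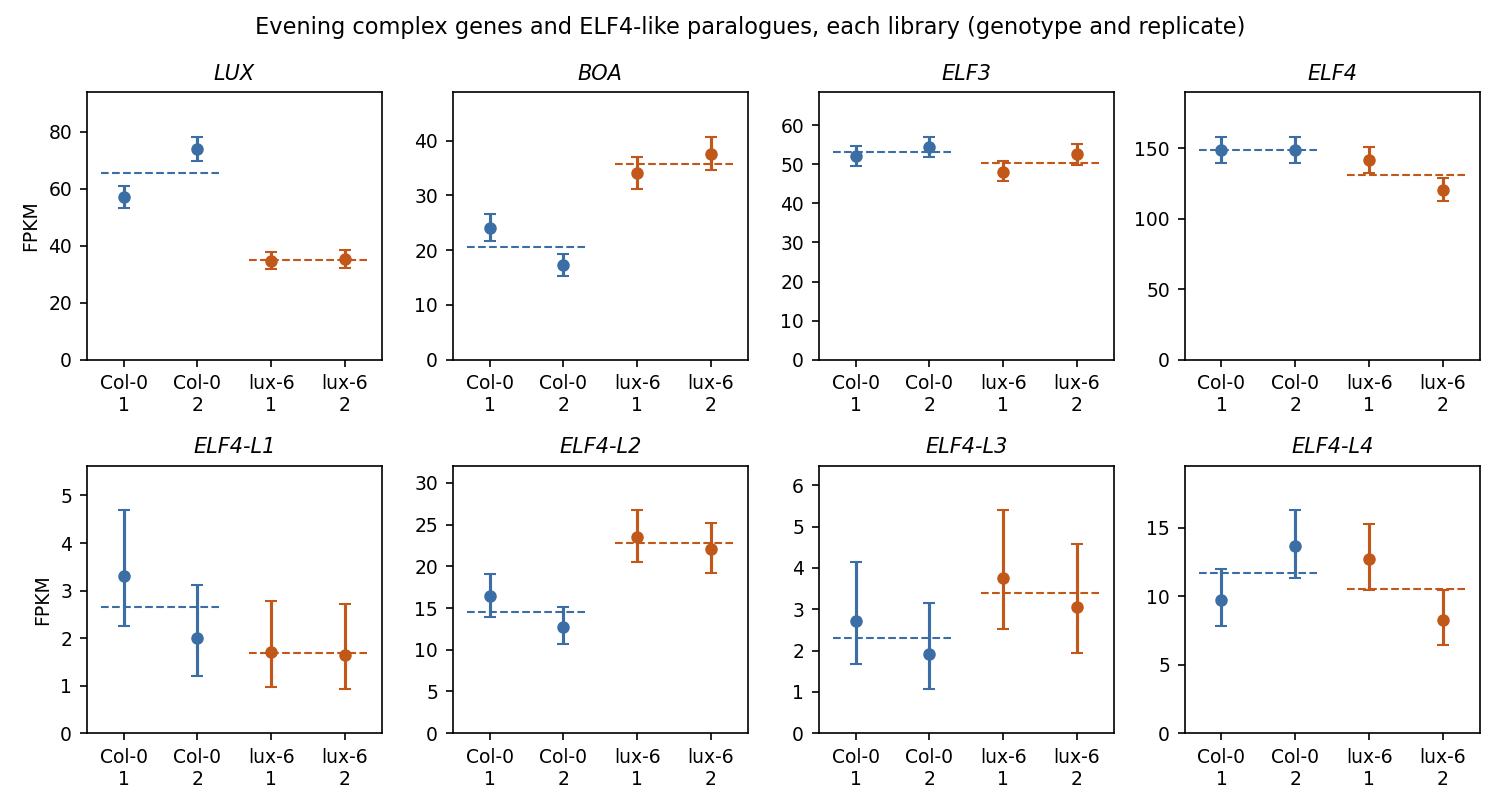
FPKM of each of the 8 genes in the 4 libraries, Col-0 in blue and lux-6 in orange, with the replicate number under the genotype. Bars are exact 95% Poisson intervals for counting error, with fragments of LUX estimated, and dashed lines are genotype means; LUX lies lower and BOA and ELF4-L2 lie higher in the mutant pair than in the wild-type pair.

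LUX, the gene named by the mutant, was lower in lux-6 but still transcribed. Since the lesion is not stated, its level does not check the genotype. Its level was 57.0 FPKM in replicate 1 and 73.9 FPKM in replicate 2 of Col-0, against 34.8 and 35.3 FPKM in the mutant pair. The groups did not overlap, and the lux-6 mean was 53.5% of the Col-0 mean. The log2 fold change was -0.87 with a standard error of 0.19 (95% interval -1.37 to -0.38), and with limma it missed the threshold after adjustment over all genes (adjusted p = 0.187). Without Col-0 replicate 2 it was -0.69, and without Col-0 replicate 1 it was -1.06. Such fits take each gene's spread from the lux-6 pair alone before it is shared over genes, so only their fold changes are given. In bulk seedling RNA, fewer cells that express a gene and less of its RNA per cell cannot be told apart. The FPKM of LUX could not be turned into whole fragments at any single gene length tried, and the shortest annotated transcript of 1384 bases gives an estimated 870 and 1145 fragments in the wild type, against 528 and 524 in the mutant.

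LUX lies on chromosome 3 at 17183042-17186959, plus strand, in TAIR10.1. Its longest transcript model runs into the exons of AT3G46650 on the opposite strand, over 698 bases, and strand handling in the counting is not stated. AT3G46650 was at 7.43 and 7.82 FPKM in the wild type against 16.2 and 22.1 FPKM in the mutant, so the antisense neighbour was higher where LUX was lower. The shortest LUX transcript shares no exonic base with it.

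BOA, the homologue of LUX, differed in the other direction. It stood at 24.0 and 17.2 FPKM in the wild type against 34.1 and 37.6 FPKM in the mutant. The mutant values were both the higher, without overlap, and the lux-6 mean was 174% of the Col-0 mean. The log2 fold change was 0.78 with a standard error of 0.22 (95% interval 0.22 to 1.34), which also missed the threshold in limma (adjusted p = 0.274). The values rest on at least 384 and 280 fragments in the wild type, against 542 and 585 in the mutant, the smallest whole numbers that fit. Without Col-0 replicate 2 the change was 0.56, and without Col-0 replicate 1 it was 1.01. BOA lies on chromosome 5 at 24003888-24007844, plus strand, and overlaps exons of UGT76E1 on the opposite strand over 1679 bases. UGT76E1 was at no more than 1.22 FPKM in any library.

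Scaling between libraries cancels in the ratio of BOA to LUX within a library, but not in their sum. BOA amounted to 0.421 and 0.233 of the LUX level in Col-0 replicates 1 and 2 and to 0.979 and 1.07 of it in lux-6 replicates 1 and 2. The ratio was thus higher in both lux-6 libraries, which lay close together, than in both Col-0 libraries, which lay apart. The summed level of LUX and BOA was 81.0 and 91.1 FPKM in the wild type against 68.8 and 72.8 FPKM in the mutant. It was lower in both lux-6 libraries. For either quantity, an exact two-sided permutation test of 2 against 2 libraries cannot go below p = 0.333.

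**Figure D2:**
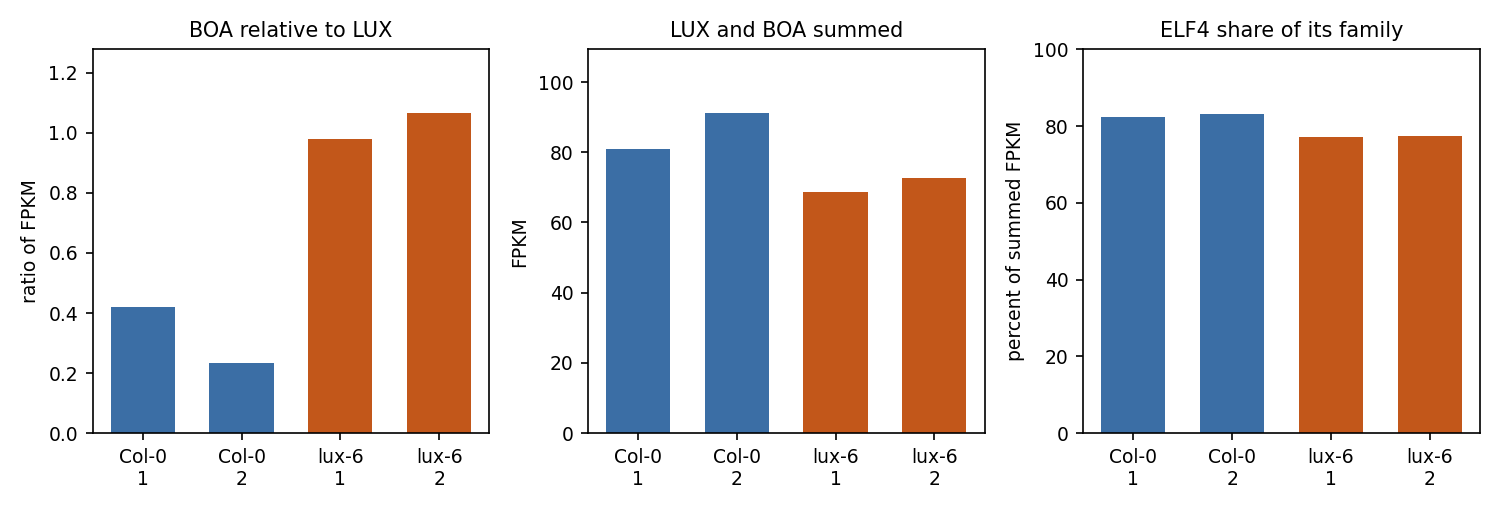
Quantities formed within each library from FPKM, Col-0 in blue and lux-6 in orange. The ratio of BOA to LUX is 0.421 and 0.233 in the wild type and 0.979 and 1.07 in the mutant, the LUX and BOA sum is lower in lux-6, and ELF4 makes up 82.2% and 83.1% of its family's summed FPKM in the wild type and 77.2% and 77.5% in the mutant.

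The Col-0 libraries differed from each other in the same genes. Col-0 replicate 2 had the highest LUX and the lowest BOA of the 4 libraries, with log2 differences from replicate 1 of 0.37 and -0.46. For LUX the 95% Poisson intervals of the Col-0 replicates did not meet, at 53.3 to 60.9 and 69.7 to 78.3 FPKM, and for BOA they were 21.7 to 26.5 and 15.3 to 19.4 FPKM. The lux-6 replicates differed by 0.02 for LUX and 0.14 for BOA on the log2 scale, within counting error. Of the LUX and BOA levels, those of Col-0 replicate 1 were the nearer to lux-6.

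ELF3, the scaffold protein of the complex, was at nearly the same level in all libraries. It stood at 52.1 and 54.4 FPKM in the wild type against 48.2 and 52.5 FPKM in the mutant, on 1404 to 1619 fragments. The groups overlapped, and the log2 fold change was -0.08 (95% interval -0.49 to 0.33, limma adjusted p = 0.835). The interval still allows a change of the size of -0.49, so a small difference was not detectable with these libraries. ELF3 lies on chromosome 2 at 11058944-11063324, plus strand. Its exons meet those of the antisense neighbour ALPHA-VPE over 24 bases, and ALPHA-VPE was at 3.24 FPKM or below.

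ELF4 was at 149 FPKM in each Col-0 library and at 142 and 121 FPKM in lux-6. Both lux-6 values lay below both Col-0 values, though the drop from 142 to 121 between the lux-6 replicates was the larger step. The log2 fold change was -0.19 with a standard error of 0.18 (95% interval -0.65 to 0.28, limma adjusted p = 0.670). These values came from 802 to 1031 fragments. ELF4 lies on chromosome 2 at 16734294-16734953, minus strand, and no other annotated gene overlaps it. The ratio of LUX to ELF3 was 1.09 and 1.36 in the wild type and 0.722 and 0.671 in the mutant, while that of ELF4 to ELF3 was 2.86 and 2.73 in the wild type and 2.94 and 2.30 in the mutant. The LUX to ELF3 ratio therefore separated the genotypes, and the ELF4 to ELF3 ratio overlapped between them.

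Among the ELF4-like genes, ELF4-L2 was the most abundant in both lux-6 libraries and in Col-0 replicate 1, and ELF4-L4 in Col-0 replicate 2. ELF4-L2 stood at 16.4 and 12.8 FPKM in the wild type against 23.5 and 22.0 FPKM in the mutant, on 128 to 231 fragments. Neither wild-type library reached either mutant one, and the lux-6 mean was 156% of the Col-0 mean. The log2 fold change was 0.62 with a standard error of 0.19 (95% interval 0.12 to 1.12), not past the limma test (adjusted p = 0.327). It was 0.45 without Col-0 replicate 2 (adjusted p = 0.233), and without Col-0 replicate 1 it was 0.79 and passed (adjusted p = 0.0116). ELF4-L2 lies on chromosome 1 at 27344181-27345585, plus strand, with no overlapping gene.

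ELF4-L4, the closest paralogue of ELF4-L2 in coding sequence, varied within each genotype as much as between them. It stood at 9.75 and 13.7 FPKM in the wild type against 12.7 and 8.28 FPKM in the mutant, on 72 to 124 fragments. The groups overlapped, and the log2 fold change of -0.15 (95% interval -0.89 to 0.59, limma adjusted p = 0.823) turned to 0.070 without Col-0 replicate 2 and to 0.13 without lux-6 replicate 2. ELF4-L4 lies on chromosome 1 at 5997057-5998599, plus strand.

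ELF4-L3 and ELF4-L1 were expressed at low levels. ELF4-L3 stood at 2.71 and 1.91 FPKM in the wild type against 3.76 and 3.05 FPKM in the mutant, on 15 to 29 fragments. Both lux-6 libraries were the higher, but the Poisson intervals of all 4 overlapped (log2 fold change 0.42, 95% interval -0.26 to 1.10, limma adjusted p = 0.547). ELF4-L1 stood at 3.31 and 1.99 FPKM in the wild type against 1.71 and 1.64 FPKM in the mutant, on 15 to 31 fragments. Here both lux-6 libraries were the lower, again with overlapping counting intervals (log2 fold change -0.42, 95% interval -1.18 to 0.34, limma adjusted p = 0.572). Neither gene was called, and the part of the low fragment numbers in this was not tested.

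ELF4-L1 overlaps a transcribed neighbour. On chromosome 2 at 12767585-12768437, plus strand, 634 bases or 74.3% of its exons lie in exons of the cyclophilin gene CYP5 on the opposite strand. CYP5 was at 84.7 and 105.6 FPKM in the wild type against 91.2 and 86.1 FPKM in the mutant, far above ELF4-L1. If strand was not kept, fragments of the pair cannot be told apart there, and the ELF4-L1 values are uncertain. ELF4-L3, on chromosome 2 at 2457573-2459940, plus strand, has no overlapping gene.

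The summed level of the 4 ELF4-like genes was 32.2 and 30.3 FPKM in the wild type against 41.7 and 35.0 FPKM in the mutant, higher in both lux-6 libraries. ELF4 itself made up 82.2% and 83.1% of its family's summed FPKM in the wild type and 77.2% and 77.5% in the mutant. The share was lower in both lux-6 libraries, and the exact permutation test again cannot give a p under 0.333.

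Taken as a list, none of the 8 genes passed the limma test, where 57 of 19592 tested genes, or 0.291%, passed (0.286% higher and 0.00510% lower in lux-6). Limma-voom on fragments also called none of the 8. LUX, BOA and ELF4-L2, 3 of the 8, had an unadjusted p below 0.05, a level that 12.3% of all tested genes reached. For BOA, ELF4-L2 and ELF4-L3 both mutant values exceeded both wild-type values, and for LUX, ELF4 and ELF4-L1 both were smaller, so 6 of the 8 did not overlap. Of all tested genes 26.1% were higher and 22.8% lower in this sense, together 48.8%. The median log2 fold change of the 8 genes was -0.12 against 0.05 over all genes tested, and 0.01 without Col-0 replicate 2.

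**Figure D3:**
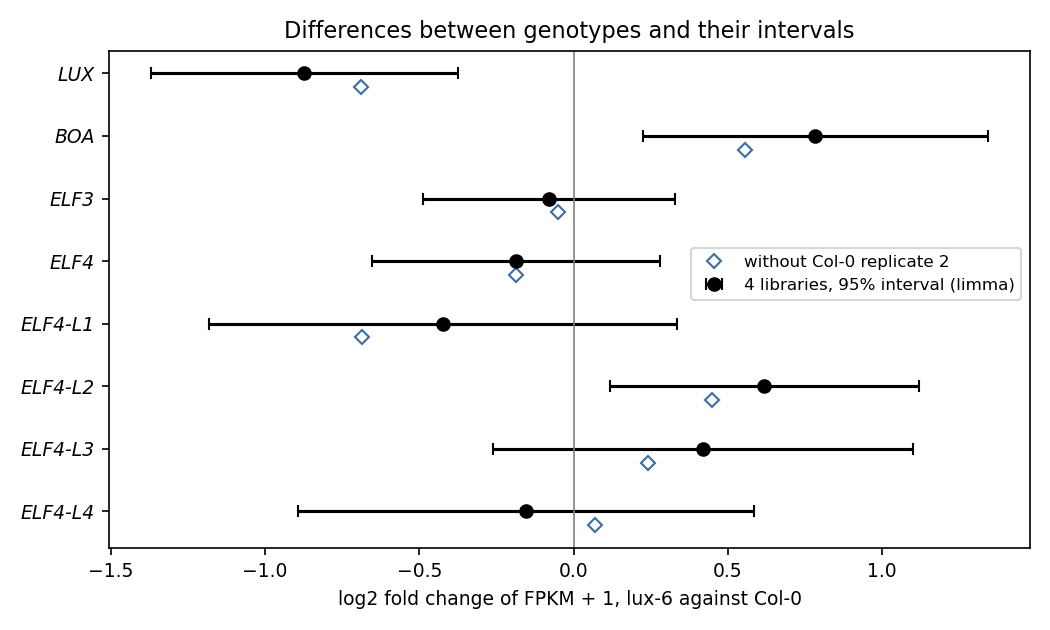
Log2 fold change of FPKM + 1 in lux-6 against Col-0 for the 8 genes; black points and bars are the limma estimate and its 95% interval over 4 libraries, and open diamonds the estimate without Col-0 replicate 2. The intervals of LUX, BOA and ELF4-L2 do not reach 0, before adjustment over all genes, and ELF4-L4 changes side without Col-0 replicate 2.

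Genes that the complex is known to repress stood higher in lux-6 beside the modest differences of the complex itself. The list held PIF4 and PIF5, growth-promoting transcription factors, the clock genes PRR7, PRR9, GI, LNK1 and TOC1, and the jasmonate factor MYC2. All 8 were higher in the mutant pair than in the wild-type pair. Of all tested genes, which leave out PRR9, 26.1% were. The list was chosen with earlier results of these data known, so setting it beside that share is not a test. LUX, which the complex is also known to bind, is not in the list and was lower in the mutant. None of the 7 listed targets that were tested passed the main limma fit over 4 libraries (PRR9 was below a mean of 1 FPKM). Their log2 fold changes ran from 0.26 for TOC1 to 3.03 for PIF5, and the median was 1.34. Col-0 replicate 2 had lower levels of every one of them but TOC1 than Col-0 replicate 1. Without it the median was 0.95, PIF4 went from 2.32 to 1.14 and PIF5 from 3.03 to 2.06 on the log2 scale, and 5 of the 7 passed limma, in a fit that called 680 genes higher and 70 lower in all. The adjusted p was 0.00877 for PIF4, 0.00169 for PIF5, 0.0190 for PRR7, 0.0320 for LNK1 and 0.0331 for MYC2. With Col-0 replicate 1 left out instead, their median reached 1.73 and GI passed besides those 5, in a fit that called 4244 genes higher and 2374 lower. The target genes and the 8 genes are compared in the same libraries, so these are not separate experiments.

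No tested regulator upstream of the family passed the main limma fit over 4 libraries. CCA1 and LHY, the morning repressors that bind the evening element, were near the bottom of the range at this hour. Both averaged under 1 FPKM and were not tested. CCA1 was at 0.503 and 0.472 FPKM in the wild type and 1.17 and 1.15 in the mutant, higher in both lux-6 libraries. LHY was at 0.645 FPKM or below in all libraries. RVE4 and RVE8, MYB factors that activate evening genes through the same element, were at 30.0 and 20.3 FPKM and at 2.36 and 1.46 FPKM in Col-0. In lux-6 they were at 40.1 and 43.4 FPKM and at 4.16 and 3.73 FPKM. Of 8 clock regulators, TOC1 among them again, 6 were tested, none passed limma, and the median log2 fold change was 0.56, or 0.38 without Col-0 replicate 2. Col-0 replicate 2 had lower RVE4, RVE8 and LNK2 than replicate 1, and without replicate 1 the median log2 fold change of the 6 was 0.83.

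HY5, a light-signalling factor known to activate ELF4, was at 43.1 and 34.1 FPKM in the wild type against 26.5 and 24.4 FPKM in the mutant. It lay lower in both lux-6 libraries without passing (log2 fold change -0.57, limma adjusted p = 0.348). FHY3, a light-signalling transcription factor, was at 19.5 and 18.0 FPKM in the wild type against 25.8 and 24.1 FPKM in the mutant (log2 fold change 0.40, limma adjusted p = 0.428). FAR1 had a log2 fold change of -0.16. The 3 light regulators thus lay on both sides, with none called.

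Genes for proteins that bind or modify the evening complex were centred close to no difference. Of 15 such genes 14 were tested and none passed the main limma fit over 4 libraries. Their median log2 fold change was -0.01, with a range of -0.45 to 0.90. The 2 with the smallest p were TZP, a nuclear light-signalling protein associated with phytochrome B, and BBX18, a B-box protein that acts with the ubiquitin ligase XBAT31 on ELF3. TZP stood at 15.2 FPKM in both Col-0 libraries and at 11.6 and 10.3 in lux-6. BBX18 stood at 5.45 and 2.73 FPKM in the wild type against 10.95 and 5.99 FPKM in the mutant, so it varied within each genotype almost as much as between them. The log2 fold changes of BBX18 and XBAT31 were 1.29 and 0.47 without Col-0 replicate 1, and 0.50 and 0.13 without Col-0 replicate 2.

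**Figure D4:**
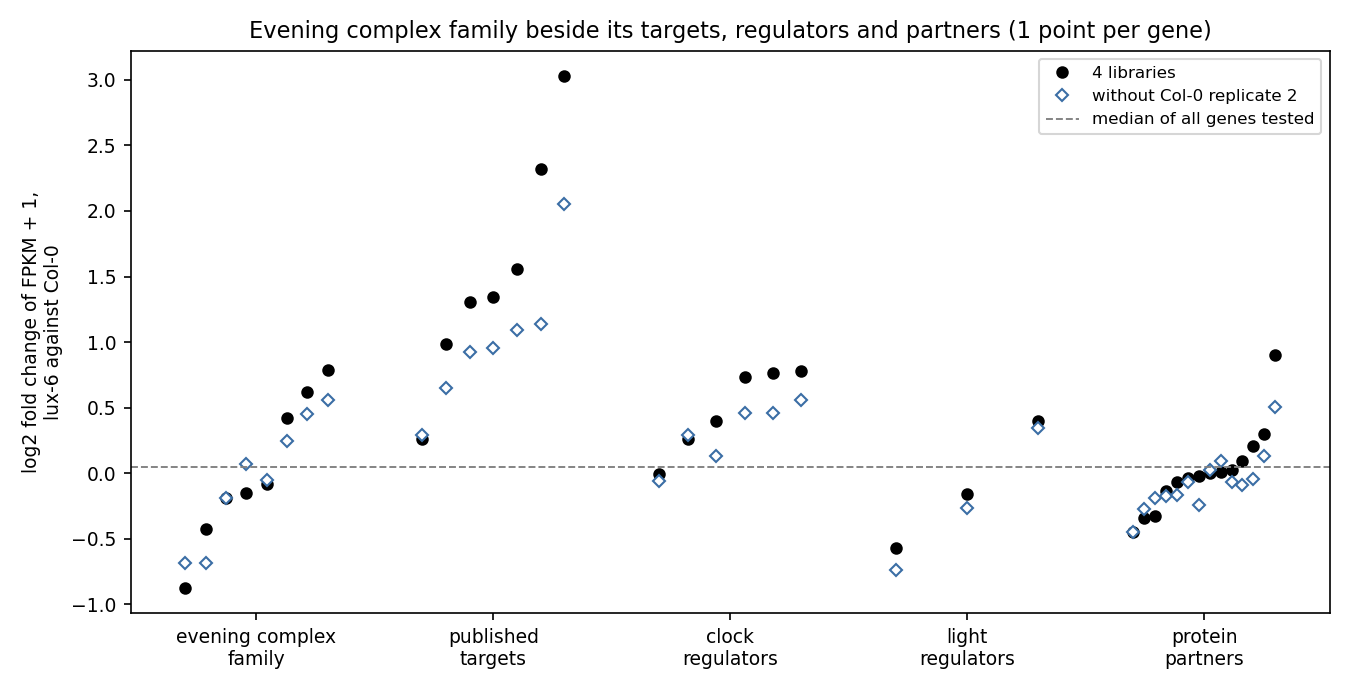
Log2 fold change of FPKM + 1 in lux-6 against Col-0, 1 point per tested gene, for the evening complex family, published targets, clock regulators, light regulators and protein partners; black points use 4 libraries and open diamonds leave out Col-0 replicate 2. The 8 family genes lie on both sides of the dashed median of all genes (0.05), all 7 targets lie above it, and the protein partners are centred close to it.

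Other genes followed the family's profiles over the 4 libraries, as measured by the Euclidean distance between log2(FPKM + 1) values centred per gene, among 15379 genes averaging 5 FPKM or more. Nearest to LUX were PTAC12 (distance 0.067), a component of the plastid transcription machinery, RPL12-C (0.075), annotated as a ribosomal protein L12, and AT4G38100 (0.079), annotated as a thylakoid curvature protein. PTAC12 was at 68.3 and 86.0 FPKM in the wild type against 39.6 and 39.8 FPKM in the mutant. Nearest to BOA were AT5G40910 (0.028), annotated as a TIR-NBS-LRR resistance protein, PG2 (0.053), and AT3G14840 (0.054), a receptor-like kinase. AT5G40910 was at 32.3 and 22.7 FPKM in the wild type against 44.9 and 50.4 FPKM in the mutant. Nearest to ELF4 were AT1G64600 (0.025), SAE2 (0.030), a SUMO-activating enzyme subunit, and VAR1 (0.031), a plastid FtsH protease. With 4 libraries such likeness describes these values only.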

How the data were processed

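TRIzol RNA of whole seedlings was cleared of DNA and went into NEBNext Ultra libraries, per the labels' protocols. TopHat2 2.0.12 and the build TAIR10 appear in the submitters' processing notes. No counter, gene length or filter is given in the sources used here. Each deposited file holds the FPKM of 1 library, per the file headers, for 33602 gene IDs. Of these, 97.7% had an entry in the RefSeq annotation of TAIR10.1, from which names, positions and sequences were taken. The files hold no coordinates. The promoter of ELF4 is not reported here.

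Genotype was tested in limma 3.58.1 (R 4.3.3), allowing the variance to depend on the mean, on log2(FPKM + 1) of the 19592 genes averaging 1 FPKM or more. P-values are two-sided, adjusted over all genes by the Benjamini-Hochberg method, with a threshold of 0.05. Fold changes on this scale understate changes of low genes. Every adjusted p in the results is from this model unless limma-voom or a left-out library is named. The p-values rest on 2 libraries per genotype and measure only the spread between these libraries.

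Library totals were the commonest values that turned FPKM into whole fragments over genes with 1 transcript. Fragments came from the gene length that gave whole numbers within 0.002 in all libraries, found for 82.9% of 24532 genes above 0. Where several lengths fitted, the one nearest to the shortest annotated transcript was taken. For other genes fragments were estimated from that transcript. Poisson intervals cover counting error only. Coding sequences were aligned globally with Biopython 1.88.

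The text names the 8 members, every published target, and from each other list the genes past the test or the 2 with the smallest p. It also names the 3 genes with profiles nearest to LUX, BOA and ELF4, and markers that describe the libraries. CCA1, LHY, RVE6, LNK2, FAR1, XBAT31, EEC, AT3G10760 and the overlapping neighbours were named besides, after their values had been seen. The members and lists were chosen with earlier results of these data known. Alternatives were another pseudocount, other filters, median-of-ratios scaling, removal of organelle genes, a replicate block, limma-voom on fragments, and each library left out.

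Several choices were revised after results had been seen. The rule for choosing among fitting gene lengths was changed after the first fragments of LUX and BOA. The motif GATTCG was added after a first motif search. The fits with a library left out first recomputed the low-value filter on 3 libraries and were then set to keep the 19592 genes, so that 1 choice changes at a time. The first form is given as an added alternative.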

Additional observations from a re-analysis of the deposited data

How the results depend on the processing

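The direction of LUX, BOA, ELF3, ELF4, ELF4-L1, ELF4-L2 and ELF4-L3 held under every alternative in which they were tested, and ELF4-L4 turned to 0.070 and 0.13 without Col-0 replicate 2 and without lux-6 replicate 2. No alternative with all 4 libraries called any of the 8 genes. ELF4-L1 and ELF4-L3 were not tested with a filter at 5 FPKM. With each library left out, the log2 fold change ranged from -1.06 to -0.69 for LUX, from 0.56 to 1.01 for BOA, from 0.45 to 0.79 for ELF4-L2 and from -0.44 to 0.13 for ELF4-L4. LUX, BOA and ELF4-L2 passed only in fits without a Col-0 library, where the spread is taken from the close lux-6 pair. Genes of the target, clock regulator, relative and protein partner lists passed there too.

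The count over all genes depended on the settings. Against 56 higher and 1 lower, limma called 0 and 0 with a pseudocount of 0.1 FPKM, where 2316 genes were at an unadjusted p under 0.05, and 0 and 0 without a filter, where 2680 were. It called 97 and 3 with a filter at 5 FPKM, 95 and 1 with median-of-ratios scaling, 95 and 3 without organelle genes, and limma-voom called 88 and 3. With each library left out the counts ranged from 0 to 4244 higher and from 0 to 2374 lower. Without Col-0 replicate 1 they were 4244 and 2374, without Col-0 replicate 2 they were 680 and 70, and without either lux-6 library 0 and 0 (874 and 889 at unadjusted p below 0.05). With the filter recomputed on the 3 libraries, the form first run and added after seeing the data, they were 4234 and 2377 without Col-0 replicate 1 and 848 and 106 without Col-0 replicate 2. With that filter ELF4-L4 was again 0.070 without Col-0 replicate 2 and 0.13 without lux-6 replicate 2. The cause of these shifts was not tested.

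With the replicate number as a block, 332 genes were called higher and 8 lower, and none of the 8 genes. The numbers share no stated batch, and deviations of same-numbered libraries from their genotype means correlated across genes at r = -0.03, so the pairing rests on the number alone. ELF4-L1 and ELF4-L3 rest on only 15 to 31 fragments a library, so their counting intervals are wide.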

Other observations

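Relatives of the family outside the evening complex showed no called change in the main limma fit over 4 libraries. EEC, the closest relative of ELF3, was at 0.116 FPKM or below in every library and at 0 in Col-0 replicate 1 and lux-6 replicate 1. MYBC1, a GARP-type MYB gene, had wild-type levels of 11.2 and 5.45 FPKM and mutant levels of 15.1 and 13.2, and AT5G05090, of the same type, had 8.84 and 5.09 FPKM in the wild type against 10.97 and 11.1 FPKM in the mutant. Both were lowest in Col-0 replicate 2 and higher in both lux-6 libraries, with log2 fold changes of 0.77 and 0.64 (limma adjusted p = 0.458 and 0.455), and 0.31 and 0.29 without Col-0 replicate 2. Without Col-0 replicate 1 the log2 fold changes of MYBC1 and AT5G05090 were 1.23 and 0.98. AT3G10760 ran from 21.7 to 27.2 FPKM in the wild type and from 21.3 to 24.0 in the mutant, where the groups overlapped.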
